A study of Arabidopsis thaliana with 18 samples.

Results

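The NAC domain transcription factor genes of Arabidopsis thaliana were examined for DNA bound in vitro by FRUITFULL (FUL), a MADS-domain protein, alone or mixed with its partners. They were taken as the protein-coding genes whose annotated product holds the words "NAC domain" or "NAC (No Apical Meristem)". The boundary genes CUC1, CUC2 and CUC3 and the fibre wall genes NST1 and SND1 were left out. This gave 98 genes of the 27444 protein-coding genes on the nuclear chromosomes. The label was taken from the annotation alone, since a peak list carries no expression with which it could be checked.

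DAP-seq exposes naked, fragmented genomic DNA to protein made in vitro, recovers the protein through a tag, and sequences the DNA held with it. The protein mixtures were FUL-SOC1, FUL-AG-SEP3, FUL on its own and the controls FUL-AG and FUL-SEP3, with an input library without selection as the sixth condition, and there were 3 replicates of each, 18 samples in all. The deposited data hold 1 peak list per mixture, made after its 3 replicates were combined, so no value has a spread between replicates and no difference between mixtures could be tested over samples. All mixtures received 400 ng of the same kind of DNA library, from leaves of Col-0 seedlings grown for 2 weeks. Only FUL carried the 3xFLAG tag in every mixture, so DNA held by a partner without FUL was not recovered, and a mixture with partners can also hold FUL on its own. The proteins came from a wheat germ extract and the DNA carried no chromatin, so a peak is a place that the mixture held in the tube.

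NAC proteins form one of the largest plant-specific families of transcription factors, with a conserved DNA-binding domain at the N-terminus and a variable activation region at the C-terminus. They set organ boundaries, switch on the secondary wall programme of xylem and fibre cells, mature the root cap, drive leaf senescence and relay drought, salt and abscisic acid signals. Several are silenced by the microRNA miR164, and several are held at a membrane until a stress signal frees them. MADS-domain proteins bind the CArG-box, a stretch of 10 bases written CC[A/T]6GG, as dimers or tetramers. FUL acts with SOC1 in flowering and with AG and SEP proteins in the fruit.

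The sequences that follow are those under the sites that all 5 lists held at NAC genes, since these are the places where peaks of every mixture overlapped. Each run is 30 bases of the plus strand of TAIR10, 5′ to 3′, with the 10 bases closest to CC[A/T]6GG in capitals. The closest stretch was sought within 100 bases on each side of the summit of the peak with the lowest p at the site. At NAC001 the summits of the lists spread over 279 bp, so its stretch need not lie near each of them.
NAC001, chr1:8347-8376: gaaccaaaaaCCAAAATTGGaaagaaatag
NAC023, chr1:22224276-22224305: tcttttcgttCCATTATTGGcttgtcagaa
AT3G12977, chr3:4146416-4146445: gcgtatcgtaCCAAAAAAGGatattttgtt
ANAC046, chr3:1052249-1052278: atctagaaacCGAAAAATGGaaagaagcgg
VND2, chr4:17112795-17112824: caacttttttCCTTAAATAGtaaccaacga
ANAC080, chr5:2433984-2434013: atcttactaaCCTAATTTGCaacattttct
NAC096, chr5:18905623-18905652: gattatttaaCCTTTTTTTGtctagcaagt
VNI2, chr5:4196834-4196863: ctgattcttgCTATATTTAGtaagttttca
The boxes at NAC001, NAC023 and AT3G12977 were exact. Those at ANAC046, VND2, ANAC080 and NAC096 had 1 mismatch, and the closest stretch at VNI2 had 2. The highest fold enrichment of any NAC gene lay upstream of ANAC080, and the 121 bases centred on its summit, chr5:2433899-2434019 on the plus strand, are shown with the same box in capitals.
ANAC080 summit: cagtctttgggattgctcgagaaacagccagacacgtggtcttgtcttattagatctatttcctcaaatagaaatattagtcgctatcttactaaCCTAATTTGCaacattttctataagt

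At least 1 peak lay in the gene or within 3 kb on each side at 50 of the 98 NAC genes, and 48 had none in any list. With FUL-SOC1, 35 NAC genes (35.7%, 95% Wilson interval 26.9% to 45.6%) held a peak, against 28.7% of all protein-coding genes. With FUL-AG-SEP3 the number was 34 (34.7%, 26.0% to 44.5%), against 27.1%. FUL alone marked 21 (21.4%, 14.5% to 30.5%), against 17.0%. The background shares of these 3 lists lay inside the interval of the NAC share.

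The control mixtures had the larger ratios of the NAC share to the background, 1.75 for FUL-AG and 1.77 for FUL-SEP3, against 1.24 for FUL-SOC1, 1.28 for FUL-AG-SEP3 and 1.26 for FUL. FUL-AG marked 31 NAC genes (31.6%, 23.3% to 41.4%), against 18.1% of all protein-coding genes, and FUL-SEP3 marked 16 (16.3%, 10.3% to 24.9%), against 9.22%. For both lists the background lay below the interval. At equal list length, with the 1000 peaks of lowest p in each, the ratio was 1.64 for FUL-SEP3, 1.64 for FUL-AG-SEP3, 1.62 for FUL-SOC1, 1.49 for FUL and 1.97 for FUL-AG, so FUL-SEP3 no longer stood apart. These intervals cover counting error over genes only, and NAC genes that lie side by side share peaks and are not independent. Any of the 5 lists marked 51.0% of the NAC genes and 43.9% of all protein-coding genes.

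**Figure D1:**
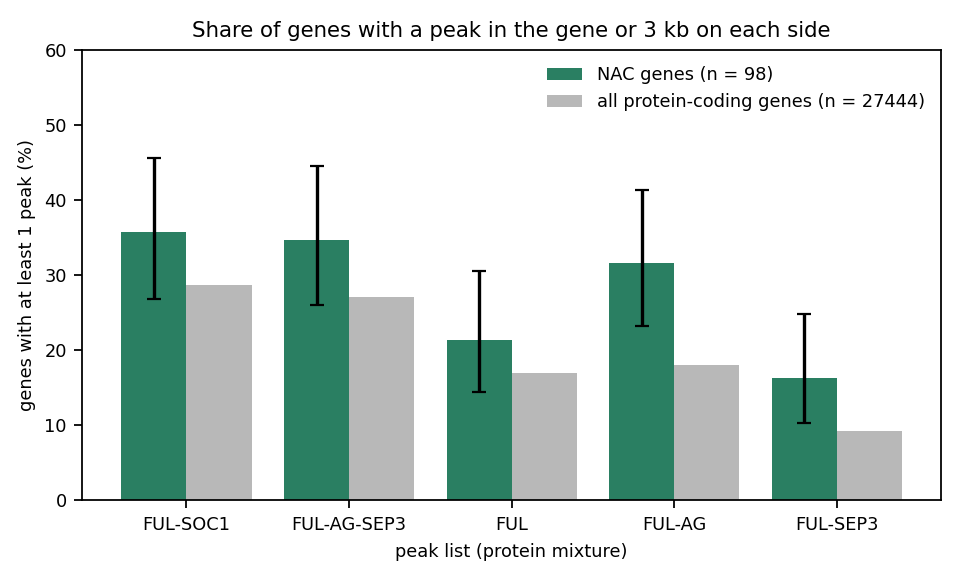
Share of genes (%) with at least 1 peak in the gene or 3 kb on each side, by peak list, for the 98 NAC genes (green, bars with 95% Wilson intervals, counting error only) and all 27444 protein-coding genes (grey). The green bar is above the grey bar in every list, and the grey bar lies under the interval for FUL-AG and FUL-SEP3.

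Gene size gave NAC genes no wider windows. Their median length was 1847.5 bp, against 2078.0 bp over all protein-coding genes. Per 100 kb of window, FUL-SOC1 had 5.25 peaks at NAC genes and 4.10 at all protein-coding genes, and FUL-AG-SEP3 had 4.99 and 3.83. FUL had 2.69 and 2.25. FUL-AG had 4.35 and 2.41, and FUL-SEP3 had 2.05 and 1.16. At NAC genes the lists came in the same order by peaks per 100 kb as by the share of genes with a peak. This order is not that of the ratios to the background.

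Shares were also set against the background in parts of the window. In the 3 kb upstream alone, FUL-AG-SEP3 peaks marked 9 NAC genes (9.18%), against 11.8% of all protein-coding genes. In the gene body alone, FUL-SOC1 marked 8 (8.16%), against 9.29%, and FUL marked 5 (5.10%), against 5.55%. FUL-AG marked 9 NAC genes upstream (9.18%, against 7.24%) and 11 in the body (11.2%, against 6.06%). FUL-SEP3 marked 5 upstream (5.10%, against 3.94%) and 5 in the body (5.10%, against 2.56%). Also above the background were FUL upstream (9.18%, against 7.26%), FUL-SOC1 upstream (14.3%, against 13.2%) and FUL-AG-SEP3 in the body (10.2%, against 9.07%). The counts are all small. The shares below the background were near it, so no change of direction can be read from them.

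Lists overlapped at the level of genes. All 5 lists marked 8 NAC genes (8.16%, Wilson interval 4.19% to 15.3%), against 4.20% of all protein-coding genes. That background lay just inside the interval. FUL-AG-SEP3 and FUL-AG marked 25 NAC genes together (25.5%, 17.9% to 35.0%), against 15.4%. FUL-SOC1 without FUL-AG-SEP3 was found at 12 NAC genes (12.2%), against 12.0%, and the reverse at 11 (11.2%), against 10.4%, so these shares were close to the background. FUL-SOC1 alone of the 5 lists marked 5 NAC genes (5.10%, 2.20% to 11.4%), against 9.46%, which lay inside the interval. The FUL list alone marked 0 of the 98, against 2.62% of all protein-coding genes. The Wilson interval allows a share of up to 3.77%, and a limit set at 3 counts allows 3.06% (counting error only). One list alone marked 8 NAC genes (8.16%, 4.19% to 15.3%), against 17.7% of all protein-coding genes. Exactly 2 lists marked 18 (18.4%, 11.9% to 27.2%), against 9.71%.

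**Figure D2:**
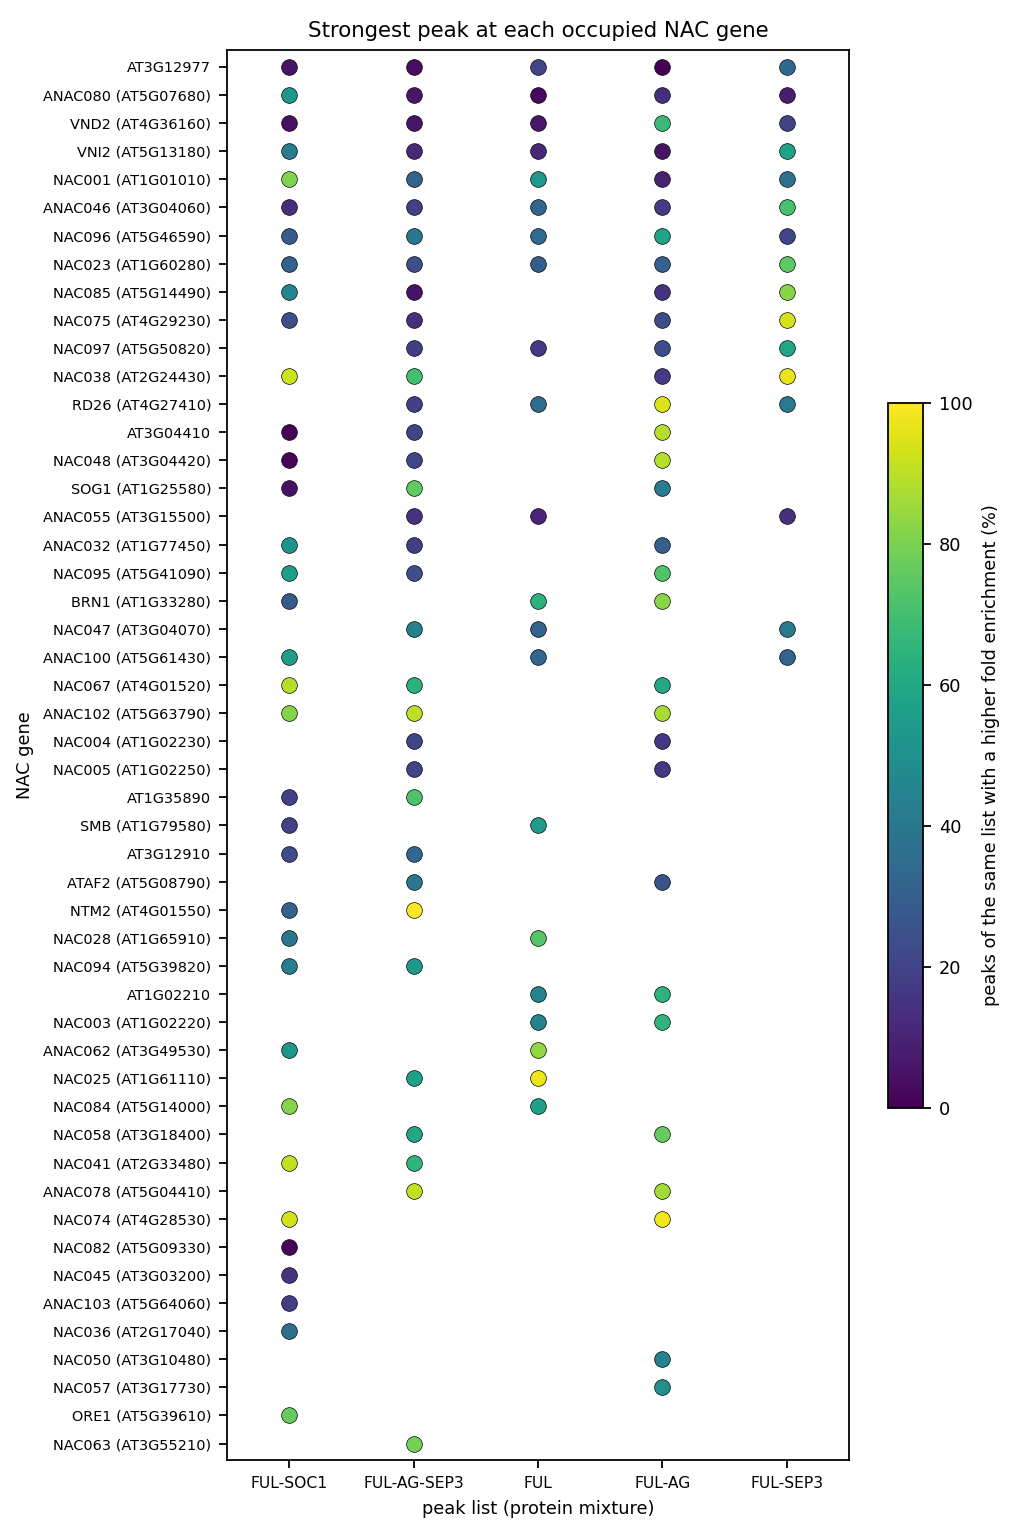
Each of the 50 NAC genes with a peak (rows) and the 5 peak lists (columns), where a point marks at least 1 peak and its colour gives the percentage of peaks of the same list with a higher fold enrichment than the gene's strongest peak (dark for the strongest). The first 8 rows are the genes marked in all 5 lists, and AT3G12977, ANAC080 and VND2 hold the darkest points among them.

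Fold enrichment is the authors' ratio of the pooled signal at the summit to its local background. Since its scale differs between lists, each fold is given with the percentage of peaks in its own list that were higher. ANAC080 (AT5G07680, plus strand of chromosome 5, 2435795 to 2437661) is a NAC gene under miR164. Its site, chr5:2433601-2434280, was intergenic, with the summit 1836 bp upstream of the start. Fold enrichment there was 9.73 with FUL (2.08% of peaks higher), 5.57 with FUL-SEP3 (8.42%), 4.67 with FUL-AG-SEP3 (5.83%), 4.14 with FUL-AG (13.0%) and 3.01 with FUL-SOC1 (52.6%). The site stood high in all lists but that of FUL-SOC1, where it was an average peak. Its FUL peak, with a −log10 p of 61.6, had the lowest p of all peaks at NAC genes.

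VND2 (AT4G36160, minus strand of chromosome 4, 17110645 to 17114141) switches on the secondary wall programme of xylem vessels. Its site in all 5 lists, chr4:17112610-17112940, had its summit in a coding exon, 1355 bp from the start. The start of AT4G36170 was nearer to that summit. Fold enrichment was 7.84 with FUL (6.06% of peaks higher), 4.69 with FUL-AG-SEP3 (5.74%), 4.34 with FUL-SOC1 (4.14%), 4.76 with FUL-SEP3 (19.6%) and 2.96 with FUL-AG (67.7%). Here FUL-AG was the weak list. A further VND2 site, 1250 bp upstream and inside an intron of the overlapping gene AT4G36170, was found with FUL-SOC1 only, at a fold of 3.33.

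VNI2 (AT5G13180), a NAC repressor that binds the vessel regulator VND7, held a site in its intron, chr5:4196658-4197048, 590 bp from the start. Fold enrichment was 6.70 with FUL (11.3% of peaks higher), 4.88 with FUL-AG (4.90%), 4.23 with FUL-AG-SEP3 (11.4%), 3.64 with FUL-SEP3 (57.6%) and 3.16 with FUL-SOC1 (41.6%). FUL-AG ranked it highest, and FUL and FUL-AG-SEP3 ranked it alike. This site was found in every list although no stretch within 100 bases of the summit came closer than 2 mismatches.

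AT3G12977, a NAC gene without a symbol, held its site 2977 bp from its start, beyond its own end and in the 5′ UTR of HAC5, a histone acetyltransferase gene, whose start was the nearest. Fold enrichment was 6.01 with FUL-AG (0.775% of peaks higher), 5.09 with FUL-AG-SEP3 (3.25%), 4.22 with FUL-SOC1 (5.26%), 5.42 with FUL (20.4%) and 4.18 with FUL-SEP3 (33.7%). It was the highest of the NAC genes in both lists with AG.

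ANAC046 (AT3G04060) promotes chlorophyll breakdown in senescence. Its site, 2871 bp from the start and downstream of the gene, had folds of 3.77 with FUL-SOC1 (12.9% of peaks higher), 3.93 with FUL-AG (17.2%), 3.82 with FUL-AG-SEP3 (18.8%), 4.60 with FUL (32.7%) and 3.39 with FUL-SEP3 (70.9%). The start of AT3G04050 was nearer to this site. NAC096 (AT5G46590), a factor of abscisic acid responses, held its site in the 5′ UTR, 364 bp from the start. The folds were 4.68 with FUL-SEP3 (20.1%), 3.37 with FUL-SOC1 (28.2%), 4.51 with FUL (34.7%), 3.28 with FUL-AG-SEP3 (40.1%) and 3.08 with FUL-AG (58.2%). The ANAC046 site ranked high in 3 lists, and the NAC096 site was of middle rank in most.

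The remaining pair lay beyond the NAC gene, like the sites of AT3G12977 and ANAC046. The site of NAC001 (AT1G01010) was 4751 bp from its start in a coding exon of ARV1, with folds of 4.37 with FUL-AG (9.59% of peaks higher), 3.45 with FUL-AG-SEP3 (31.6%), 4.08 with FUL-SEP3 (37.0%), 3.80 with FUL (54.1%) and 2.64 with FUL-SOC1 (81.0%). The site of NAC023 (AT1G60280) was 3549 bp from its start, with the start of BGLU6 nearest. Its folds were 3.66 with FUL-AG-SEP3 (23.8%), 4.78 with FUL (29.6%), 3.33 with FUL-SOC1 (30.5%), 3.56 with FUL-AG (30.5%) and 3.29 with FUL-SEP3 (75.2%). Of the 8 sites, the list that ranked the site highest was FUL-AG for 3, FUL-SOC1 for 2, and FUL-AG-SEP3, FUL and FUL-SEP3 for 1 each, so no mixture led throughout.

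Other genes held high peaks in part of the lists. The strongest FUL-SOC1 peak of a NAC gene, with a fold of 4.98 (1.03% of peaks higher), lay between AT3G04410 and NAC048 (AT3G04420), a pair in tandem that shared it. It had folds of 3.76 with FUL-AG-SEP3 and 2.56 with FUL-AG, and the summit was 1123 bp upstream of NAC048. NAC085 (AT5G14490) held a site 389 bp upstream of its start, with folds of 4.74 with FUL-AG-SEP3 (5.30%), 4.07 with FUL-AG (14.6%), 3.16 with FUL-SEP3 and 3.10 with FUL-SOC1. FUL alone had no peak there.

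Genes with a FUL-SOC1 peak and no FUL-AG-SEP3 peak had FUL-SOC1 folds between 2.37 (NAC074) and 4.67 (NAC082). The 3 highest were NAC082 (AT5G09330), which acts in the response to ribosomal stress, at 4.67 (1.95% of peaks higher), NAC045 (AT3G03200), which with NAC086 directs the loss of the nucleus in phloem sieve elements, at 3.68 (15.2%), and ANAC103 (AT5G64060), of the unfolded protein response, at 3.61 (17.7%). All of these were found in the FUL-SOC1 list only. NAC045 held 2 such sites, the other at a fold of 3.15. The NAC082 and NAC045 sites lay downstream of the NAC gene and inside neighbouring genes, with the NAC082 summit 4521 bp from its start in an intron of VPS9B.

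Genes with a FUL-AG-SEP3 peak and no FUL-SOC1 peak had FUL-AG-SEP3 folds between 2.45 (ANAC078) and 4.03 (ANAC055). The 3 highest were ANAC055, NAC097 and RD26. ANAC055 (AT3G15500), of jasmonate and drought responses, had folds of 6.80 with FUL (10.3% of peaks higher), 5.07 with FUL-SEP3 (13.8%) and 4.03 with FUL-AG-SEP3 (14.2%), at a site 2355 bp from its start and downstream of the gene. No other protein-coding window held this site. NAC097 (AT5G50820) had folds of 5.79 with FUL (17.1%), 3.88 with FUL-AG-SEP3 (17.6%), 3.75 with FUL-AG (22.8%) and 3.59 with FUL-SEP3 (59.0%), so all lists but FUL-SOC1 held it. That site lay 3973 bp from the NAC097 start, downstream of the gene, with the start of AT5G50830 nearest. RD26 (AT4G27410), a drought and abscisic acid factor, had folds of 4.51 with FUL (34.7%), 3.82 with FUL-AG-SEP3 (18.8%) and 3.98 with FUL-SEP3 (40.8%) at a site 395 bp upstream of its start. A further site 2936 bp upstream of RD26 was held by FUL-AG-SEP3 and FUL-AG. Absence from a list means only that no peak passed the authors' threshold there.

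The boxes of these 6 genes are set side by side, since they separate the FUL-SOC1 mixture from the FUL-AG-SEP3 mixture at NAC genes. They are printed as above, with the 3 genes without a FUL-AG-SEP3 peak first and the 3 without a FUL-SOC1 peak last. At the last 3 sites the peak with the lowest p was that of FUL, so its summit centred the search. The summits of the lists at the RD26 site spread over 96 bp.
NAC082, chr5:2890948-2890977: aatagcttttGCTTAAATTGtacaatcctt
NAC045, chr3:733763-733792: tctatttataCCATCTTTGGtgtgtgttct
ANAC103, chr5:25637456-25637485: agttttttacCCTTATTAGGttggttcttt
ANAC055, chr3:5236823-5236852: tcatttctttCCTAAAATAGtaacaattca
NAC097, chr5:20683182-20683211: tcactatttaCCAAATTTAGcaaacaaatc
RD26, chr4:13709524-13709553: tctatattcgACTATATTGGtgccgttcgg
ANAC103 had an exact box, NAC082 came no closer than 2 mismatches, and the other 4 had 1 mismatch. Neither set was of 1 kind, and 3 sites each are too few for a comparison.

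Peaks that overlapped by at least 1 bp were joined to sites, which gave 59 sites at NAC genes. One list alone held 16 of them (27.1%), against 51.1% of the 6997 sites at all protein-coding genes. Exactly 2 lists held 20 (33.9%), against 20.7%, and all 5 held 8 (13.6%), against 6.42%. Of the 16 sites in a single list, 11 were from FUL-SOC1, 2 from FUL-AG-SEP3, 2 from FUL-AG and 1 from FUL. FUL-SOC1, the longest list, also gave 53.0% of the 3576 single-list sites at all protein-coding genes, FUL-AG-SEP3 23.5%, FUL 14.7% and FUL-AG 7.35%. Of the 40 FUL-SOC1 peaks, 22 overlapped a FUL-AG-SEP3 peak (55.0%, 39.8% to 69.3%), against 47.3% at all protein-coding genes. Those 22 were 59.5% of the 37 FUL-AG-SEP3 peaks (43.5% to 73.7%), against 51.0%. Both backgrounds lay inside the intervals. FUL-AG-SEP3 shared 25 sites with FUL-AG, 67.6% of its own (51.5% to 80.4%) and 80.6% of those of FUL-AG, against 51.1% and 81.2%. Summits of 1 site mostly lay close together, with a median spread of 38.0 bp between lists, and the largest spread was 372 bp.

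In strength, peaks at NAC genes were near the middle of their lists or a little above it. The median fold was 3.18 at NAC genes and 3.06 in the list for FUL-SOC1, 3.28 and 3.13 for FUL-AG-SEP3, 4.55 and 3.95 for FUL, 3.29 and 3.23 for FUL-AG, and 3.98 and 3.79 for FUL-SEP3. For the median NAC peak, 40.5%, 40.1%, 33.7%, 44.5% and 40.8% of the list's peaks were higher, in the same order. The top 10% of the list held 5 of 40 NAC peaks with FUL-SOC1, 4 of 37 with FUL-AG-SEP3, 2 of 20 with FUL, 3 of 31 with FUL-AG and 1 of 16 with FUL-SEP3. These numbers are about the share that the top 10% holds by its definition.

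By position, the 59 sites made 62 pairs of a NAC gene and a site. The summit was upstream of the NAC gene in 20 (32.3%), against 38.3% of the pairs at all protein-coding genes, and downstream in 26 (41.9%), against 36.2%. It lay in an intron in 7 (11.3%), a coding exon in 6, the 3′ UTR in 2 and the 5′ UTR in 1. Within 1000 bp of the start there were 15 pairs (24.2%). Another protein-coding gene's window also held 51 of the 59 sites, and for 28 sites the nearest start of any protein-coding gene was that of a NAC gene. Those 28 sites belonged to 26 NAC genes, so for the other 24 of the 50 genes every site had a closer start of another gene.

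**Figure D3:**
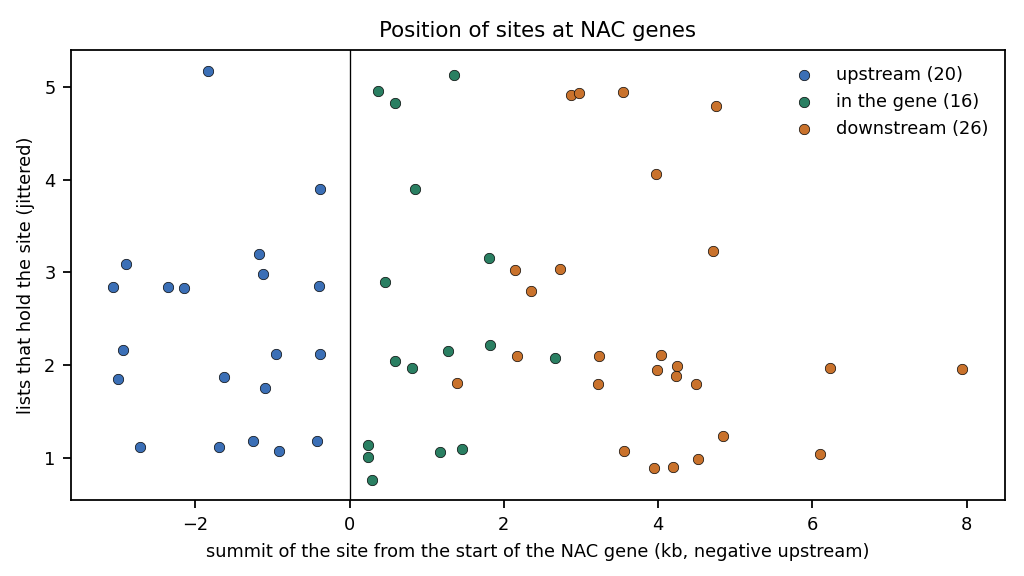
Distance of each site's summit from the start of the NAC gene (kb, negative upstream) against the number of lists that hold the site (jittered), for 62 pairs of gene and site. Colours mark 20 upstream, 16 in the gene and 26 downstream. The 8 pairs of the top row are sites of all 5 lists, 1 upstream, 3 in the gene and 4 downstream.

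Sites near the start and nearest to a NAC gene included those of NAC050 (AT3G10480), a partner of the histone demethylase JMJ14, at 241 bp inside a coding exon with FUL-AG only, at a fold of 3.29. NAC047 (AT3G04070), which acts in the leaf movement of waterlogged plants, held a site 1175 bp upstream with FUL, FUL-SEP3 and FUL-AG-SEP3, at folds of 4.69, 3.98 and 3.23. NAC028 (AT1G65910) had a site 389 bp upstream with FUL at 3.31 and FUL-SOC1 at 2.92. NAC075 (AT4G29230) had 3 sites, the largest number of the family, 10 genes had 2 and 39 had 1. At NAC075 the sites were 2896 bp upstream, 1806 bp inside and 7944 bp from the start beyond the gene, and the folds ran from 2.77 to 4.06.

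CArG-boxes were counted in the 200 bp centred on each summit. A box with at most 1 mismatch was found in 34 of 40 FUL-SOC1 peaks at NAC genes (85.0%, 70.9% to 92.9%), against 69.0% of all nuclear peaks of the list. It was found in 26 of 37 with FUL-AG-SEP3 (70.3%, 54.2% to 82.5%), against 68.2%, and in 16 of 20 with FUL (80.0%, 58.4% to 91.9%), against 74.1%. With FUL-AG it was found in 26 of 31 (83.9%, 67.4% to 92.9%), against 71.1%, and with FUL-SEP3 in 15 of 16 (93.8%, 71.7% to 98.9%), against 77.2%. In windows 1000 bp to the right of the same NAC summits, the shares were between 6.45% and 17.5%. Only the FUL-SOC1 background lay outside the interval of the NAC share.

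Exact boxes were rarer. They were found in 5 of 40 FUL-SOC1 peaks at NAC genes (12.5%), 4 of 37 FUL-AG-SEP3 peaks (10.8%), 4 of 20 FUL peaks (20.0%), 7 of 31 FUL-AG peaks (22.6%) and 2 of 16 FUL-SEP3 peaks (12.5%). The list shares were 13.6%, 14.3%, 20.4%, 15.7% and 22.3% in the same order, all inside the intervals. By site, the closest stretch was exact at 9 of 59, had 1 mismatch at 36 and 2 at 14, and 16 sites held more than 1 box of at most 1 mismatch.

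**Figure D4:**
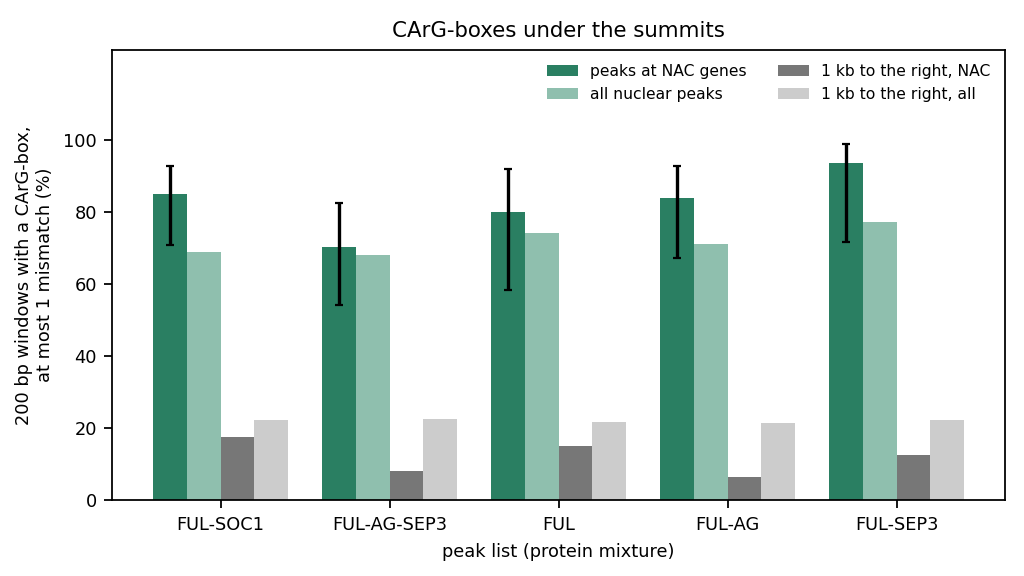
Share (%) of 200 bp windows with a CArG-box of at most 1 mismatch, by peak list. Bars are peaks at NAC genes (dark green, 95% Wilson intervals), all nuclear peaks of the list (light green), and windows 1 kb to the right of the NAC summits (dark grey) and of all summits (light grey). The NAC bars run from 70.3% to 93.8% and the dark grey bars stay at or under 17.5%.

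Among the NAC genes with an exact box, those with the summit nearest to their own start were NAC067 (957 bp upstream), ANAC103 (1687 bp upstream) and NAC075 (1806 bp inside, in a coding exon). The NAC067 and NAC075 boxes are shown because they lie upstream of and inside the NAC gene itself.
NAC067, chr4:660041-660070: ccttttcataCCTTTTTAGGgaaaaataga
NAC075, chr4:14411600-14411629: gttttgtataCCAATTTTGGtaagaatcga
Both were of low to middle strength. At NAC067 the folds were 2.70 with FUL-AG-SEP3 and 2.92 with FUL-AG, and at NAC075 they were 3.07 with FUL-AG-SEP3, 3.05 with FUL-AG and 2.77 with FUL-SEP3. FUL-SOC1 had no peak at either site.

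Grouped by role, 40 of the 98 genes belonged to 8 groups of known function, and 18 of these 40 held a peak. Of the 7 wall genes measured here, VND2 and VNI2 held peaks in all 5 lists, whereas NST2, SND2, SND3, VND3 and XND1 had none. Of the root cap genes, SMB and BRN1, which mature the cap, held peaks, and FEZ and BRN2 had none. The SMB (AT1G79580) peaks were at separate sites, 912 bp upstream with FUL at 3.77 and 3946 bp from the start with FUL-SOC1 at 3.57. BRN1 (AT1G33280) held an exact box at a site whose summit was 2146 bp upstream of its start, with folds of 3.50 with FUL, 3.37 with FUL-SOC1 and 2.71 with FUL-AG. The start of AT1G33270 was nearer to that summit.

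Of the 6 senescence genes, ANAC046 and ORE1 held peaks, and ANAC016, ANAC087, JUB1 and ORS1 had none. ORE1 (AT5G39610), the central activator of leaf senescence, had a peak 419 bp upstream of its start with FUL-SOC1 only, at a fold of 2.70 with 76.4% of peaks higher. Of the 4 genes cleaved through miR164, ANAC080, ANAC100 and ORE1 held peaks and NAC1, of lateral root growth, had none. ANAC100 (AT5G61430) had folds of 4.60 with FUL, 4.28 with FUL-SEP3 and 2.99 with FUL-SOC1 at a site 3061 bp upstream. The summit lay just beyond the window, which the peak reached with its edge.

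In the ATAF group of stress factors, 5 of 7 held peaks, all 5 of them in the FUL-AG-SEP3 list and only ANAC032 and ANAC102 in the FUL-SOC1 list. These 5 were ANAC032, ANAC055, ANAC102, ATAF2 and RD26, and ATAF1 and ANAC019 had none. Over all protein-coding genes, 27.1% held a FUL-AG-SEP3 peak, 28.7% a FUL-SOC1 peak and 10.4% the former without the latter, and 7 genes are too few for a comparison. ANAC032 (AT1G77450) had folds of 3.84 with FUL-AG-SEP3, 3.58 with FUL-AG and 3.04 with FUL-SOC1, and ATAF2 (AT5G08790) had 3.67 with FUL-AG and 3.31 with FUL-AG-SEP3. Both sites lay downstream of the gene with another start nearer. ANAC102 (AT5G63790) was weak in each, from 2.46 to 2.61, at a site in an intron of MUM2, whose start was nearest.

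Of 9 members in the group of membrane-held factors and their stress partners, ANAC062, ANAC078, ANAC103 and NTM2 held peaks and ANAC013, ANAC017, ANAC053, ANAC060 and ANAC089 had none. SOG1 (AT1G25580), the main regulator of the response to DNA damage, held 2 sites beyond its end, both nearer to the start of AT1G25570. The stronger, 4243 bp from the start, had folds of 4.31 with FUL-SOC1 (4.35% of peaks higher) and 2.75 with FUL-AG-SEP3. The seed and flowering genes NAM, NARS1 and LOV1 had no peak. Outside the role groups, 32 of 58 genes held a peak and 26 had none. The groups are small, and their counts were read against the 51.0% of all NAC genes with a peak.

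Genes tied to NAC factors by regulation were counted from a list of 16, which also holds the 5 genes left out. At least 1 peak lay at 8 of the 16, a share near the 43.9% of all protein-coding genes with a peak in any list. All of the left-out genes but CUC3 were among them. None of the precursor genes MIR164A, MIR164B and MIR164C held one, nor did the wall regulators MYB46 and MYB83, the protease gene XCP1 or the phosphatase gene SAG113. BFN1, a nuclease gene that ORE1 activates in senescence, held peaks in all 5 lists, with folds of 3.86 with FUL-SOC1 (10.5% of peaks higher), 4.52 with FUL-AG-SEP3 (7.16%) and 5.43 with FUL. XCP2, a xylem protease gene, held peaks in 3 lists, AAO3, of abscisic acid synthesis, in 2, and ERD1, of dehydration responses, in 1.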

How the data were processed

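Reads were trimmed (Trim Galore) and aligned to TAIR10 (HISAT2) by the authors, who combined the 3 replicates of a mixture before MACS2 called narrow peaks with the input as control. Versions are not given in the sources used here. The deposited fold enrichment is a ratio at the summit, and the −log10 p-value and −log10 q-value are those the authors obtained. The deposited score and the authors' signal tracks were not used here. Lists held 4831 (FUL-SOC1), 4457 (FUL-AG-SEP3), 2590 (FUL), 2837 (FUL-AG) and 1390 (FUL-SEP3) peaks. Read depth is unknown from the lists.

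Genes were those of the RefSeq annotation of TAIR10.1, whose nuclear chromosomes are those of TAIR10, so gene ends can differ from the TAIR10 annotation. Mitochondrial peaks were left out. The rule's wording was matched with its capitals. A peak was given to every gene it overlapped by at least 1 bp, flanks of 3 kb included, so a peak can count for several genes. Shares carry 95% Wilson intervals, which cover counting error only. No test was run. Peak overlap, nearest starts and boxes were tested on simulated data. CArG-boxes read the same on both strands. Named genes were every member with a site in all lists, the 3 highest folds per list and per difference between FUL-SOC1 and FUL-AG-SEP3, the 3 exact boxes nearest to a start, the most sites, and the role groups. NAC028, NAC047 and NAC050 were added after their values were seen. The members, gene lists and alternatives were chosen with earlier results of these data known. Python 3.11.15, NumPy 2.4.6, pandas 2.3.3 and Matplotlib 3.10.9 were used.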

Additional observations from a re-analysis of the deposited data

How the results depend on the processing

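No paired analysis was possible because each list was made from replicates combined, and for the same reason no replicate could be left out. Of 119 alternative values, 73 stayed inside the interval of the reported value (for counts, within 1.5 times) and 46 moved. Shares of NAC genes are given in the order FUL-SOC1, FUL-AG-SEP3, FUL alone, FUL-AG and FUL-SEP3. With 1 kb flanks they were 20.4%, 20.4%, 11.2%, 15.3% and 9.18%, against backgrounds of 16.3%, 15.8%, 9.70%, 10.3% and 5.04%. In the gene body only they were 8.16%, 10.2%, 5.10%, 11.2% and 5.10%, against 9.29%, 9.07%, 5.55%, 6.06% and 2.56%. In 3 kb upstream only they were 14.3%, 9.18%, 9.18%, 9.18% and 5.10%, against 13.2%, 11.8%, 7.26%, 7.24% and 3.94%. With each peak given to the nearest start they were 15.3%, 17.3%, 10.2%, 14.3% and 9.18%. The backgrounds were then 14.9%, 13.8%, 8.50%, 9.13% and 4.72%. With 5 kb flanks FUL-SOC1 and FUL-AG-SEP3 both rose to 45.9%, against 39.4% and 37.0%, and FUL-SEP3 was at 17.3%, against 13.2%. At a fold of at least 3, FUL-SOC1 fell to 25.5%, FUL-AG-SEP3 to 24.5% and FUL-AG to 19.4%, against 17.3%, 17.7% and 12.2%. With the 1000 peaks of lowest p per list, FUL-SOC1, FUL-AG-SEP3 and FUL-SEP3 were at 11.2%, FUL at 10.2% and FUL-AG at 13.3%, against backgrounds between 6.73% and 6.95%. Genes marked in any list numbered 29 with 1 kb flanks, 28 with the 1000 peaks and 27 with nearest starts. Those marked in all 5 lists numbered 4, 1 and 3. FUL-SOC1 without FUL-AG-SEP3 was found at 7 genes with 1 kb flanks and 6 with nearest starts, and the reverse at 7 with 1 kb flanks. For these numbers of genes no background was counted under the alternatives. In 100 bp windows, a box of at most 1 mismatch was found in 65.0% of FUL-SOC1, 51.4% of FUL-AG-SEP3 and 64.5% of FUL-AG peaks, and over whole peaks in 83.8% of FUL-AG-SEP3 peaks. Over all nuclear genes the backgrounds were 28.0%, 26.2%, 16.5% and 17.5% for the first 4 lists. Adding the 13 family genes of other wording, an alternative chosen after the data were seen, moved no share out of its interval, nor did adding the 5 left-out genes. The shares of peaks common to FUL-SOC1 and FUL-AG-SEP3, the peaks per 100 kb and the median folds did not move under their alternatives. Read depth is not in the lists, so whether a missing peak reflects depth could not be told.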

Other observations

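The wording of the rule left out 13 genes that belong to the NAC family under another product name, and 8 of them held a peak, beside 51.0% of the NAC genes and 43.9% of all protein-coding genes. ANAC014 (AT1G33060) was the most marked, with 7 peaks over 4 lists, and its strongest FUL-AG-SEP3 peak had 6.17% of the list's peaks above it. NTL9 (AT4G35580), a membrane-held factor of osmotic and immune signalling, had a FUL-SOC1 fold of 4.58 (2.17% of peaks higher). NAP (AT1G69490), a senescence activator, held peaks with FUL-SOC1 at a fold of 3.86, FUL and FUL-AG. The vessel regulators VND4, VND6 and VND7 held none, and VND1 and VND5 held 1 peak each.

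Neighbouring NAC genes of a tandem cluster on chromosome 4 held sites of like sequence. The intron of NAC067 (AT4G01520) and the intron of NTM1 (AT4G01540), whose site also lay in the window of NTM2, each held a FUL-SOC1 and a FUL-AG-SEP3 peak.
NAC067, chr4:658669-658698: aaaaaagaacCCAAATTTAGaaatgattga
NTM1, chr4:672396-672425: cagaaagaacCCAAATTTAGaaatgatcga
Of these 30 bases, 27 were identical, and with 100 bases on each side of the box 84 of 210 were, compared without gaps. FUL-SOC1 had a fold of 2.48 at NAC067 and 3.33 at NTM1, and FUL-AG-SEP3 had 2.92 and 1.83. The FUL-AG-SEP3 peak at NTM1 had a −log10 p of 3.07, the lowest of its list, with 99.6% of peaks higher. Its summit lay 123 bp from that of FUL-SOC1, so the order of the copies was not compared between the mixtures. How reads that fit both copies were placed is not given in the sources used here, and its part in these values was not tested.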
